A study of Homo sapiens with 4 samples.

Results

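The AP-1 genes examined here are the 9 genes FOS, FOSB, FOSL1, FOSL2, JUN, JUNB, JUND, BATF3 and ATF2, found by symbol among the 62700 genes of each count table. They were chosen as the FOS and JUN families with 2 related partners, BATF3 and ATF2. Poly(A) RNA was sequenced from HEK293T, a line of human embryonic kidney cells, after transient transfection with RPB1, which is the largest protein of RNA polymerase II (Pol II). The carboxyl-terminal domain (CTD) of RPB1 was wild type in the WT group, whereas Thr4 of every heptad repeat was alanine in the T4A group. Both constructs resisted α-amanitin, a toxin that removes endogenous RPB1. Both groups received it 1 day after transfection, at 2.5 µg/ml for 48 hours. Each group had 2 libraries, with 19257217 to 33063535 counts per library.

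AP-1 is a dimeric transcription factor that binds DNA through a basic region next to a leucine zipper (bZIP). FOS proteins bind DNA only as partners of JUN or related proteins, whereas JUN proteins also pair with each other. FOS, FOSB, JUN and JUNB are classic immediate early genes. MAP kinase signals switch them on within minutes, without new protein synthesis, and FOS and JUN mRNAs carry AU-rich elements and decay quickly. BATF3 is a small JUN partner best known from dendritic cells, and ATF2 is a broadly expressed JUN partner that stress kinases activate by phosphorylation.

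FOS, JUN, JUNB and JUND transcripts were higher in T4A cells, by 1.37-fold to 1.75-fold, and FOSB, FOSL1, FOSL2, BATF3 and ATF2 did not pass the test. All 9 genes passed the filter on low counts. In edgeR's quasi-likelihood test with Benjamini-Hochberg adjustment over 18139 genes, 4 of the 9 rose and 0 fell at an adjusted p under 0.05. At an unadjusted p under 0.05, 5 of the 9 were higher and 0 lower, and DESeq2 and limma-voom also called 4 higher and 0 lower. Without WT replicate 2, 2 of the 9 rose. Among all tested genes 10.7% rose and 13.0% fell. The median log2 fold change of T4A over WT was 0.46 over the 9 genes and −0.01 over all tested genes. Because values are shares of a library, each rise or fall is relative to other transcripts, and a change in total RNA per cell would not show. The RNA was pooled from many cells, so a change in the cells expressing a gene and in its RNA per cell cannot be told apart.

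**Figure D1:**
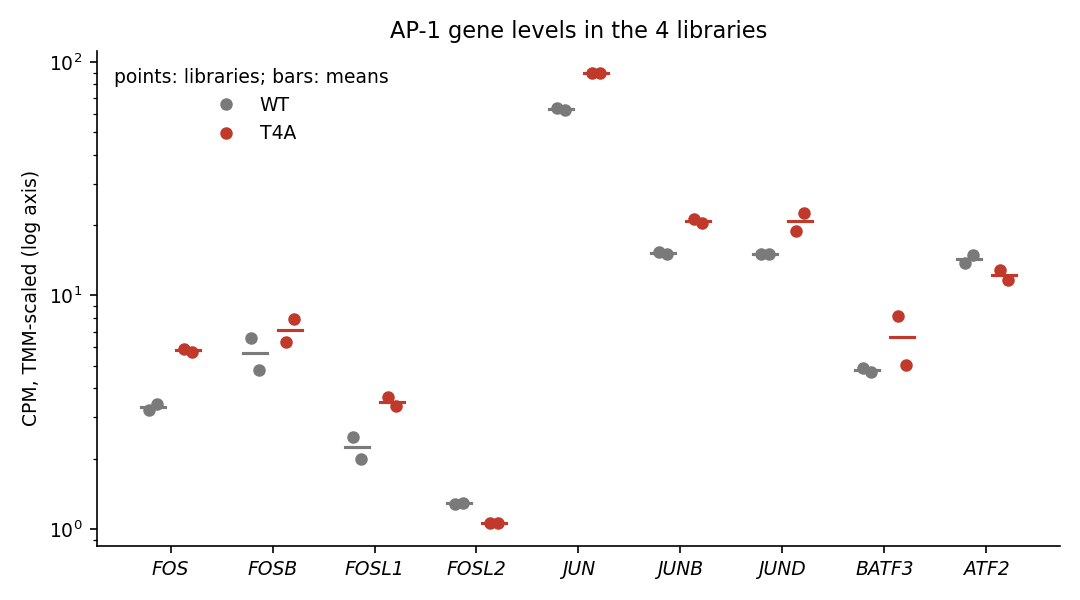
Levels of the 9 AP-1 genes in counts per 1000000 counts (CPM, log axis), WT libraries in grey and T4A libraries in red. Points are single libraries and bars are group means. JUN lies highest, at 62.4 to 63.6 CPM in WT and 89.3 to 89.4 CPM in T4A, and the groups overlap in FOSB alone.

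JUN, the founding member and main DNA-binding partner of FOS proteins, had the highest level and the firmest difference. It lies on chromosome 1 (58780791 to 58784047, GRCh38). Its level was 89.4 and 89.3 CPM in the T4A libraries and 63.6 and 62.4 CPM in the WT libraries, from 1598 to 2133 counts each. The T4A libraries lay close together, and both were above both WT libraries. The mean was 89.3 ± 0.0718 CPM (SD, n = 2) against 63.0 ± 0.855 CPM, a log2 fold change of 0.50 ± 0.07 (SE, edgeR adjusted p = 1.08e-05). JUN was called in all 13 alternative fits, with log2 fold changes of 0.43 to 0.59.

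JUNB and JUND, the other JUN family genes, rose as well. JUNB, a less active JUN protein that can restrain JUN, lies on chromosome 19 (12791486 to 12793315) and had 21.2 and 20.4 CPM in T4A against 15.3 and 15.0 CPM in WT. Its log2 fold change was 0.46 ± 0.12 (edgeR adjusted p = 0.00606). JUND, the most constitutively expressed of the family, lies on the same chromosome (18279694 to 18281622) and had 18.95 and 22.5 CPM in T4A against 15.0 CPM in both WT libraries. Its log2 fold change was 0.46 ± 0.12 (edgeR adjusted p = 0.00818). For both genes the groups did not overlap, but the T4A libraries of JUND stood further apart. JUNB was no longer called without WT replicate 2 (adjusted p = 0.0609), nor JUND without T4A replicate 2 (log2 fold change 0.33, adjusted p = 0.0753). JUNB shares 14.2% of its exonic bases with HOOK2 on the opposite strand, and alignment was unstranded. HOOK2 stood at 24.9 ± 3.35 CPM in T4A and 25.5 ± 0.285 CPM in WT.

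FOS showed the largest fold change of the called members from few counts. It encodes the short-lived partner of JUN and lies on chromosome 14 (75278828 to 75282230). In T4A, 134 and 108 counts fell on it, and in the more deeply sequenced WT pair 108 and 88. Scaled to depth, these were 5.90 and 5.74 CPM against 3.22 and 3.44 CPM, with no overlap. The log2 fold change was 0.81 ± 0.24 (edgeR adjusted p = 0.0171), with a 95% interval of 0.31 to 1.31. The size held without any 1 library (0.77 to 0.85), but FOS was no longer called when WT replicate 1 (adjusted p = 0.114) or WT replicate 2 (adjusted p = 0.0598) was left out.

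The other FOS family genes gave no call in either direction. FOSL1, encoding FRA-1, which is long-lived and abundant in invasive carcinoma cells, had 3.66 and 3.35 CPM in T4A against 2.47 and 1.99 CPM in WT (chromosome 11, 65892049 to 65900545). Its groups did not overlap, yet its log2 fold change of 0.64 ± 0.31 did not pass (edgeR adjusted p = 0.149). FOSB, which also yields a truncated stable isoform in neurons, had 6.30 and 7.92 CPM in T4A and 6.56 and 4.80 CPM in WT (chromosome 19, 45467996 to 45475179). The groups overlapped, and its log2 fold change was 0.31 ± 0.22 (adjusted p = 0.352), or 0.11 to 0.57 without 1 library.

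FOSL2, encoding FRA-2, was near the limit of these libraries. Its few counts, 24 and 20 for T4A against 43 and 33 for WT, gave 1.06 CPM in both T4A libraries and 1.28 and 1.29 CPM in WT (chromosome 2, 28392858 to 28417317). The groups did not overlap, although the exact Poisson interval (95%) of the lowest count alone ran from 12.2 to 30.9 counts. Its log2 fold change was −0.28, with an interval of −1.30 to 0.74 (edgeR adjusted p = 0.758). That interval covers both a fall and a rise, so no direction can be read from these counts.

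The partners BATF3 and ATF2 pointed in opposite directions, and neither passed. BATF3 (chromosome 1, 212686417 to 212699840) had 8.15 and 5.05 CPM in T4A and 4.89 and 4.69 CPM in WT. One T4A library was high and the other was close to the WT libraries. Its log2 fold change of 0.47 ± 0.24 (edgeR adjusted p = 0.177) became 0.76 without T4A replicate 2 (adjusted p = 0.00676) and 0.07 without T4A replicate 1. ATF2, on chromosome 2 (175072259 to 175168203), had 12.8 and 11.6 CPM in T4A and 13.7 and 14.9 CPM in WT. The T4A libraries were the lower ones, with a log2 fold change of −0.23 ± 0.14 (adjusted p = 0.275). Of the 9 genes, 8 had groups that did not overlap, where 59.0% of all tested genes did the same.

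**Figure D2:**
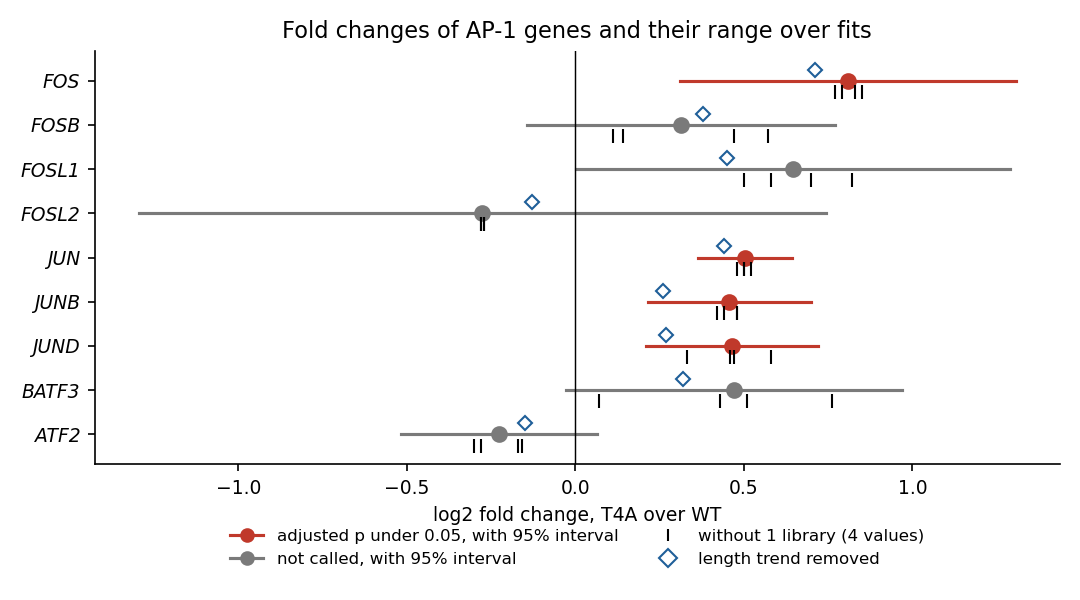
Log2 fold change of T4A over WT for each gene with its 95% interval, in red where called and grey where not, with ticks for the 4 fits without 1 library and open diamonds for the fit with the length trend removed. JUN has the narrowest interval, 0.36 to 0.64, and FOSL2 the widest, −1.30 to 0.74.

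To compare levels between genes, counts were scaled to exonic length as transcripts per 1000000 (TPM). Unlike the CPM, TPM were not TMM-scaled, so differences between groups need not be equal on the 2 scales. JUN had 51.7 and 52.5 TPM in T4A and 39.3 and 40.4 TPM in WT, above 90.9% of tested genes. JUNB (24.0 ± 0.434 against 19.0 ± 0.351 TPM, SD, n = 2) and JUND (22.7 ± 3.05 against 17.9 ± 0.578 TPM) came next. BATF3 (5.42 ± 1.74 and 4.27 ± 0.0161 TPM) and ATF2 (4.48 ± 0.256 and 5.71 ± 0.521 TPM) stood in the middle. FOSL1, FOS and FOSB lay between 2.34 and 3.92 TPM in group mean, and FOSL2 lay at 0.313 ± 0.00488 and 0.412 ± 0.0154 TPM. Neighbours whose libraries overlapped were JUNB and JUND, BATF3 and ATF2, and FOSL1 and FOS in T4A, and FOSL1 and FOS, and FOS and FOSB in WT.

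JUN family transcripts outweighed FOS family transcripts by about the same factor in every library. The 3 JUN genes summed to 96.6 and 101 TPM in T4A and 75.5 and 77.9 TPM in WT. The 4 FOS genes summed to 10.6 and 11.0 TPM in T4A and 8.24 and 7.47 TPM in WT. FOS family transcripts thus made up 9.92% and 9.80% of the joint pool in T4A and 9.85% and 8.74% in WT. The log2 ratio of FOS to JUN pools was −3.18 and −3.20 in T4A and −3.20 and −3.38 in WT, a difference of 0.10 (exact permutation test, two-sided, p = 0.667, n = 2 per group). With 2 libraries a group, that test cannot give a p under 0.33.

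Within the JUN pool, JUN supplied 53.5% and 51.9% in T4A and 52.1% and 51.9% in WT, and the groups overlapped. Within the FOS pool, FOS supplied 36.5% and 35.0% in T4A and 27.5% and 33.9% in WT. FOSL2 supplied 2.91% and 2.88% in T4A and 4.86% and 5.66% in WT, so both T4A libraries were below both WT libraries for FOSL2 and above them for FOS. For FOSB (22.4% and 27.7% in T4A, 32.1% and 27.2% in WT) the groups overlapped. The same held for FOSL1 (38.2% and 34.45% in T4A, 35.6% and 33.2% in WT). These shares were not tested.

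**Figure D3:**
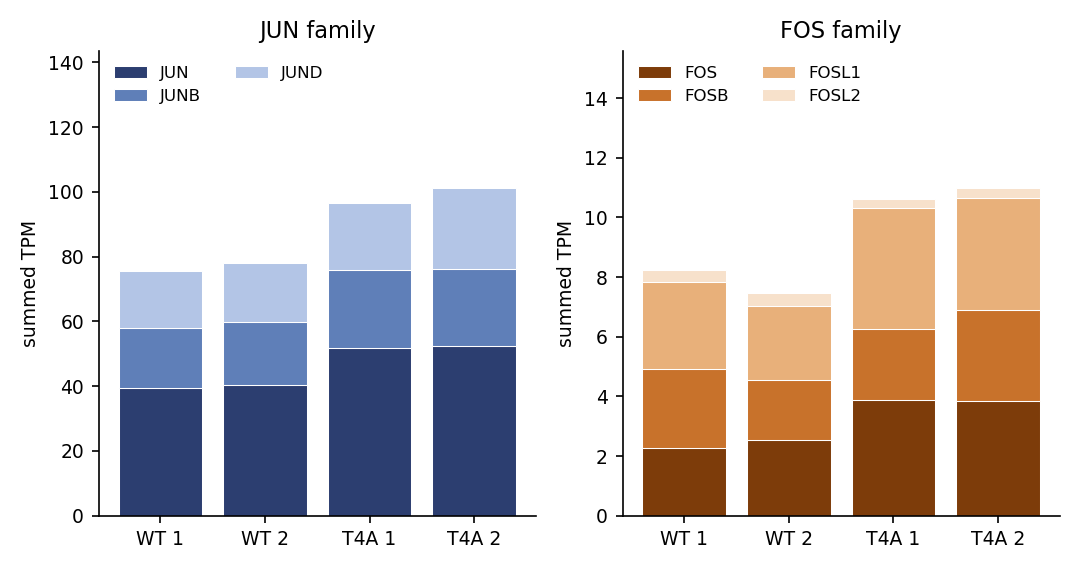
Summed TPM, not TMM-scaled, of the JUN family (left) and the FOS family (right) in each library, as stacked bars from 0 with 1 colour per gene. The JUN pool reached 96.6 and 101 TPM in T4A against 75.5 and 77.9 TPM in WT, and the FOS pool stayed below 11.0 TPM in every library, so the axes differ.

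Over all genes, fold changes of T4A over WT declined with exonic length, and several AP-1 genes are short by that measure. It counts every base in any annotated exon of a gene, so it can exceed the length of a single transcript. JUN, JUNB and JUND have exonic lengths of 3624, 1830 and 1929 bases and FOS has 3186, against a median of 4481 for tested genes. A smooth trend over 18047 genes gave log2 fold changes of 0.20 at the lengths of JUNB, JUND and FOSL1, of 0.10 at that of FOS and of 0.06 at that of JUN. With the trend removed in the fit, JUN and FOS were called (log2 fold changes 0.44 and 0.71, edgeR adjusted p = 7.13e-05 and 0.0427). JUNB and JUND were not (0.26 and 0.27, adjusted p = 0.138 and 0.144), so 2 of the 9 genes were called. FOSL2 and ATF2, at 7162 and 5751 bases, were the longest members and also those with negative fold changes. FOSB, at 5553 bases, was nearly as long as ATF2 and stood at 0.31. With the trend removed, FOSL2, ATF2 and FOSB stood at −0.13, −0.15 and 0.38, and none of them was called.

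**Figure D4:**
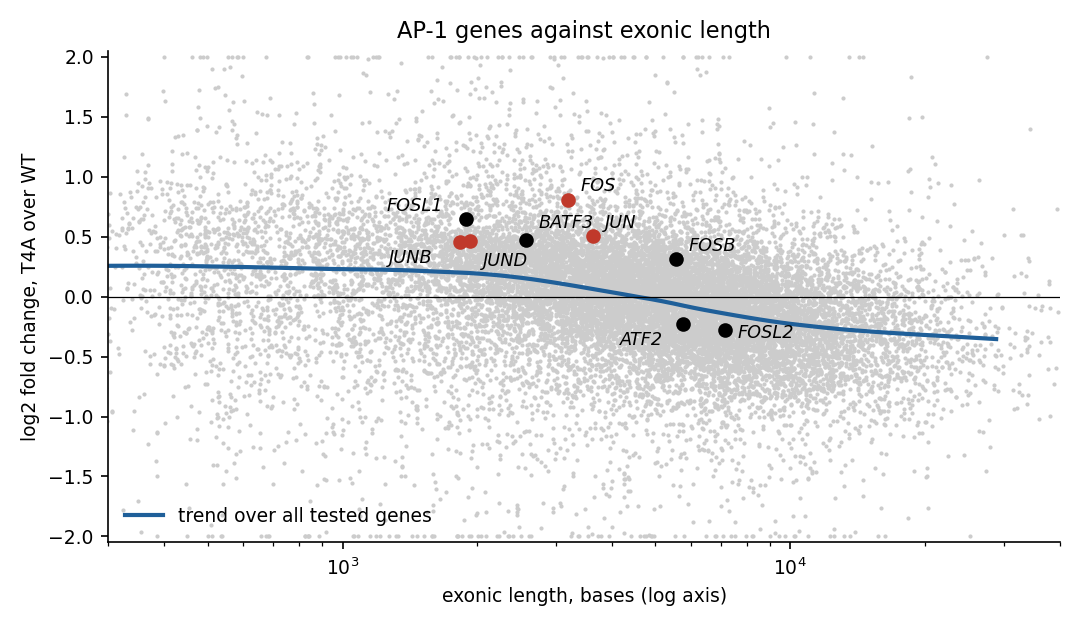
Log2 fold change against exonic length (log axis) for all tested genes with a length (grey, drawn at ±2 where beyond it), with the trend as a blue line and the AP-1 genes in red where called and black otherwise. All called AP-1 genes lie above the line, FOS by 0.71 and JUN by 0.44.

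Promoter sequence was examined because 4 members rose together. RefSeq (GRCh38.p14) windows were at hand for 6 members, namely JUN, FOSL2, FOS, JUNB, JUND and FOSB, and the 250 bases before each start were searched on both strands. FOSL1, BATF3 and ATF2 were not included. The half-site TGACGT, known from cAMP response elements, lay in 4 of the 6 (FOS, FOSB, FOSL2 and JUND) and in 7.1% of all 35116 promoters. The full palindrome TGACGTCA, which contains that half-site, lay in JUND alone among them and in 1.65% of all promoters. JUN held the variant TGACATCA, a JUN and ATF2 binding sequence, found in 2.37% of all promoters. The classical AP-1 sequence TGACTCA lay in 0 of the 6 and in 4.2% of all. The motifs were picked after these sequences had been read, and a match is a description only. The windows below are 30 bases long, 5′ to 3′ on the strand of the gene, with the motif in capitals, and show where it lies in genes that rose and in genes that did not pass.
FOS, chr14:75278752-75278781, plus strand, motif 64 to 59 bases before the start: tggttgagcccgTGACGTttacactcattc
FOSB, chr19:45467924-45467953, plus strand, 60 to 55 bases before: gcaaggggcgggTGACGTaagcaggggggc
FOSL2, chr2:28392780-28392809, plus strand, 66 to 61 bases before: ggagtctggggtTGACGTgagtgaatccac
JUN, chr1:58784096-58784125, minus strand, 67 to 60 bases before: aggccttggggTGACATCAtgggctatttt
JUND, chr19:18281804-18281833, minus strand, 200 to 193 bases before: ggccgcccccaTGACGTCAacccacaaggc

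In FOS, FOSB, FOSL2 and JUN the sequence thus began 60 to 67 bases before the start, and JUND held the half-site again, in reverse, 87 to 82 bases before it. Of these genes JUN, FOS and JUND rose, and FOSB and FOSL2 did not pass. The TATA sequence TATAAA lay in FOS, FOSB and JUNB, 3 of the 6, and in 10.7% of all promoters. It is shown because it divides the JUN family.
FOS, chr14:75278783-75278812, plus strand, 33 to 28 bases before the start: taaaacgcttgtTATAAAagcagtggctgc
FOSB, chr19:45467954-45467983, plus strand, 30 to 25 bases before: gggtcccgggcaTATAAAtacaggctggcg
JUNB, chr19:12791443-12791472, plus strand, 31 to 26 bases before: tgactagcgcggTATAAAggcgtgtggctc

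JUNB holds these letters and JUN and JUND do not. No link of any of these promoter sequences to the fold changes was tested. The GC content of the 250 bases was 62.0% in JUN to 74.8% in JUND, above the median of 58.0% over all promoters.

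Of 27 other bZIP genes, which can pair or compete with FOS and JUN, 25 were tested. Calls covered 20% of them, where 10.7% of all tested genes rose and 13.0% fell. In this list 4 rose and 1 fell (median log2 fold change 0.13). That median turned negative, −0.105, with T4A replicate 1 left out, and leaving out T4A replicate 2, WT replicate 1 or WT replicate 2 gave 0.062, 0.052 and 0.027. Scaling to library totals alone gave 0.046, and upper quartile scaling gave 0.213. ATF3, a stress-induced repressor that pairs with JUN, rose by 0.99 (28.6 and 32.4 CPM in T4A against 15.7 and 15.0 CPM in WT, edgeR adjusted p = 1.17e-06). ATF4, the translationally controlled effector of the integrated stress response, rose by 0.37, CEBPB by 0.79 and DDIT3 (CHOP) by 1.02. MAFG, a small MAF protein without an activation domain, fell by 0.34 on the log2 scale. The calls of DDIT3 and MAFG were lost without WT replicate 2, that of DDIT3 also without T4A replicate 1 and that of MAFG without T4A replicate 2. ATF3 exceeded every JUN family gene in fold change, a difference that was not tested. With WT replicate 2 left out, 0 bZIP genes of the list fell, and with the length trend removed DDIT3 was no longer called (adjusted p = 0.0691).

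Other immediate early genes were mixed. Of 26, 23 were tested, and 6 rose and 4 fell (median 0.32, or 0.135 without WT replicate 2). That was 43.5% of those tested, where 10.7% of all tested genes rose and 13.0% fell. ARC, a synaptic immediate early gene, rose by 0.88, PPP1R15A (GADD34) by 0.64, GADD45B by 0.50, IER2 by 0.39 and IER5 by 0.35. KLF6 fell by 0.60 on the log2 scale, ZFP36L1, which binds AU-rich elements, fell by 0.48, BTG2 fell by 0.33 and MCL1 fell by 0.28. EGR1, which shares serum response elements with FOS, stood at 0.49 ± 0.23 (edgeR adjusted p = 0.145) and was named after its value was seen. Without WT replicate 2, GADD45B, BTG2 and MCL1 lost their calls and 2 genes fell. BTG2 was also lost without T4A replicate 2, MCL1 without T4A replicate 1 and ARC without WT replicate 1. With the length trend removed GADD45B and MCL1 were no longer called (adjusted p = 0.092 and 0.224).

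Upstream lie the kinases and factors that activate AP-1. Of 39 MAP kinase and SRF pathway genes, all tested, 13 fell and 3 rose. Calls made up 41% of this list, where 10.7% of all tested genes rose and 13.0% fell. Its median was −0.15, or −0.073 with the length trend removed, −0.063 under upper quartile scaling and −0.224 with library totals alone. ELK4, a ternary complex factor that drives FOS with SRF, fell by 0.88 in log2 units (18.2 ± 1.44 against 33.6 ± 0.0189 CPM, edgeR adjusted p = 2.26e-06). MAP3K20 (ZAK) fell by 0.53 and RPS6KA3 (RSK2) fell by 0.52. MAPK3 (ERK1) rose by 0.35, MAP2K2 (MEK2) by 0.28 and MAPK12 by 0.27. The widest change was in MAPK10 (JNK3), whose counts were 4 in each T4A library and 41 in each WT library, which was named after its values were seen and lost its call without WT replicate 2. The median exonic length of this list was 7326 bases, and with the length trend removed 7 of its genes fell and MAP3K20 was no longer called (adjusted p = 0.0942).

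Other genes modify, degrade or assist AP-1 proteins. Of 20, 19 were tested, and 5 fell and 1 rose. That was 31.6% of those tested, where 10.7% of all tested genes rose and 13.0% fell. The median was −0.27, or −0.147 without WT replicate 1 and −0.065 with the length trend removed. NCOR1, a corepressor, fell by 0.57 on the log2 scale, GSK3B, which phosphorylates JUN for degradation, fell by 0.63, BTRC fell by 0.51, CSNK2A1 fell by 0.48 and SMARCD1 fell by 0.39. Without WT replicate 2, GSK3B and BTRC lost their calls. GSK3B was also lost without T4A replicate 1, and BTRC without T4A replicate 2 or WT replicate 1. With the length trend removed 2 of these genes fell and 3 rose, and CSNK2A1, GSK3B and BTRC were no longer called.

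Downstream, AP-1 target genes moved in both directions. Of 40 listed, 25 were tested, and 7 rose and 4 fell (median 0.15). Calls made up 44% of those tested, where 10.7% of all tested genes rose and 13.0% fell. The median of the targets was 0.048 without T4A replicate 1 and 0.057 without WT replicate 2, and stood at 0.285 without WT replicate 1. It was 0.074 with library totals alone and 0.233 under upper quartile scaling. DUSP1, a MAP kinase phosphatase, rose by 1.09 (7.40 and 7.66 CPM in T4A against 3.995 and 3.05 CPM in WT). TIMP1, a protease inhibitor, rose by 0.39, CLU by 0.36, FTH1, the ferritin heavy chain with many pseudogenes, by 0.31 and TGFB1 by 0.30. ITGA2 fell by 1.22 on the log2 scale, LOX, a collagen cross-linking oxidase, fell by 0.60, DNMT1 fell by 0.32 and GJA1 (connexin 43) fell by 0.29. GJA1 lost its call without WT replicate 1, and with the length trend removed DNMT1 stood at −0.02 and TIMP1 at 0.18 (adjusted p = 0.843 and 0.0766). The collagenase and stromelysin genes MMP1, MMP3, MMP9, MMP10 and MMP13, classic AP-1 targets, did not pass the filter on low counts.

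**Figure D5:**
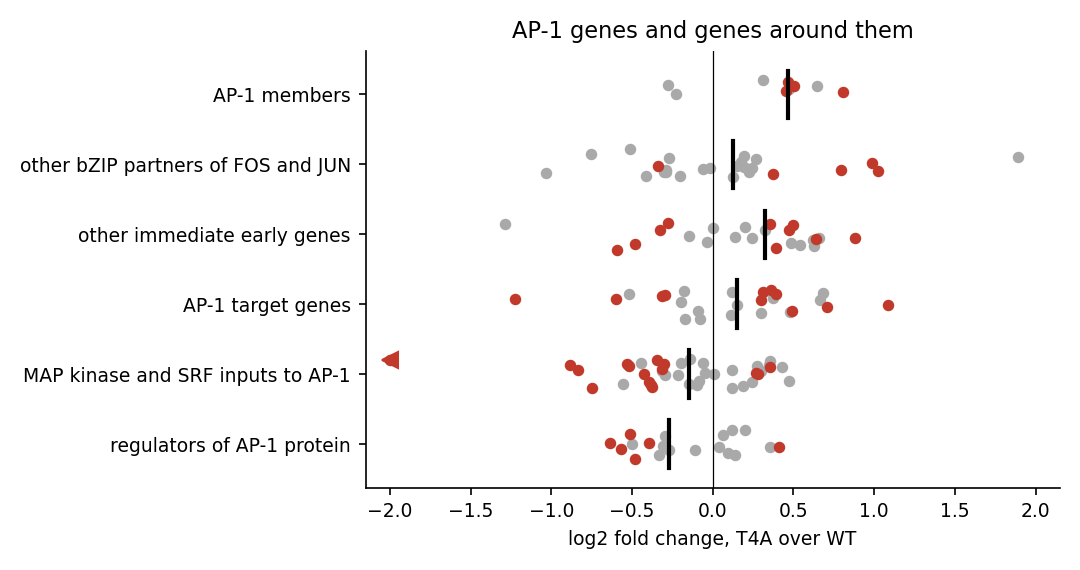
Log2 fold change of T4A over WT for the AP-1 genes and the tested genes of 5 lists around them, 1 point per gene, in red where the edgeR adjusted p was under 0.05, with black bars for medians and an arrowhead for MAPK10 beyond the axis. The AP-1 genes have 4 called points on the right and 0 on the left, and the MAP kinase and SRF list has 13 on the left and 3 on the right.

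Among 12226 other protein-coding genes averaging 1 CPM or more, the pattern of log2 CPM across the 4 libraries was nearest to that of JUN in BCAT2, GADD45B and SELENOM, at Euclidean distances of 0.0135, 0.0136 and 0.0158. Nearest to FOS were RPL36A, UBE2C and IER5L, at 0.0701, 0.0764 and 0.0773. With only 4 libraries, many genes come close to any pattern.

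Some facts of the whole set bear on these values. POLR2A, the gene of RPB1, had 5378 and 5477 CPM in T4A and 3772 and 2764 CPM in WT. Construct and endogenous transcripts were counted together, so the RNA level of the construct and the mutation cannot be told apart here. The paper followed the RPB1 constructs as protein by Western blot and describes similar levels of both. Of 13 genes listed for HEK293T cells, 10 or 11 had counts in each library, among them VIM, NEFL and CDH2 with at least 53.1 CPM each, and PAX8 and CRABP1 were at 0 in all libraries. Markers of blood cells summed to between 11.8 and 19.0 CPM, mostly from CD14, which had 14.4 ± 1.12 CPM in T4A and 10.8 ± 1.51 CPM in WT (edgeR adjusted p = 0.0466), and MS4A1, CD68 and HBB were at 0. Fibroblast markers summed to 34.9 to 42.2 CPM, mostly from COL1A1, with COL1A2 at 0. Endothelial markers summed to less than 1 CPM. The part of these markers in the AP-1 values was not tested.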

How the data were processed

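Poly(A) libraries came from column-purified RNA and the NEBNext Ultra kit. The authors trimmed reads with Trimmomatic 0.38, aligned them to GRCh38 without strand by HISAT2 2.2.1 and counted fragments per gene with featureCounts 2.0.1, so the deposited values are raw counts. The sources used here do not say how fragments with several matches were counted.

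Of 62700 identifiers, 60877 matched a symbol. GENCODE release 44, lifted to another build, served for names and exonic lengths, and coordinates are RefSeq positions on GRCh38. From the counts, genes were kept by filterByExpr (18139) and tested in edgeR 4.0.16 (R 4.3.3) with TMM scaling, glmQLFit and glmQLFTest, adjusting p-values over all of them by Benjamini-Hochberg. Genes were called, or said to have risen or fallen, at an adjusted p under 0.05. Each standard error is the log2 fold change over the root of its F statistic. CPM use TMM-scaled library sizes, whereas TPM use exonic length and no TMM scaling. Chi-square per degree of freedom between replicates was 4.56 (T4A) and 5.66 (WT), so no library was a repeat of another. The study describes its duplicates as biological, whereas the labels name no separate cultures, so the spread behind each p-value may be partly technical. Intervals of counts cover counting error only.

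The members and the gene lists were chosen with earlier results of these data known. Named genes are the 9 members, up to 5 called genes of smallest p in each direction of a list, POLR2A, and the 3 genes nearest in pattern to JUN and to FOS. A few genes named by that rule are not reported here. Alternatives were 3 other normalizations, 2 other filters, DESeq2 1.42.0, limma-voom (limma 3.58.1), a replicate block, each library left out, and removal of the length trend by offsets from a lowess curve. The edgeR, DESeq2 and limma steps were tested on simulated data.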

Additional observations from a re-analysis of the deposited data

How the results depend on the processing

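Of the AP-1 genes, 4 rose in 10 of the 13 alternative fits, 3 without WT replicate 1 and 2 both without WT replicate 2 and with the length trend removed, and 0 fell in any of them. Without T4A replicate 2 the called set changed, with BATF3 (log2 fold change 0.76) in place of JUND (0.33). All 9 genes kept their direction in all 13 fits. Leaving out 1 library gave 2 to 4 AP-1 genes that rose and 0 that fell. For the other lists the ranges were 3 to 6 higher and 0 to 2 lower (bZIP partners), 3 to 4 and 9 to 12 (MAP kinase and SRF inputs), 1 to 2 and 3 to 5 (regulators of AP-1 protein), 5 to 8 and 3 to 5 (targets), and 4 to 7 and 2 to 4 (immediate early genes). The log2 ratio of FOS to JUN pools differed by 0.00 to 0.19, and by 0.00 with CPM.

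Upper quartile scaling gave 6 higher MAP kinase and SRF genes, 2 higher regulators and 2 lower immediate early genes, and 61.0% of all calls were then rises, against 45.1%. Library totals alone gave 3 lower bZIP partners, 8 lower regulators and 31.2% rises. DESeq2 gave 8 lower MAP kinase and SRF genes and 2 lower immediate early genes. With the length trend removed, 7 MAP kinase and SRF genes and 2 regulators fell, 3 regulators rose, and 56.3% of all calls were rises. Of 48 companion genes called, 19 lost their call without some library and 16 with the length trend removed. The cause was not tested.

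Over all tested genes, the deviations of same-numbered libraries from their group means were not correlated (−0.00379). With 2 libraries per group, that value cannot settle whether the replicate numbers mark a pairing. With a replicate block, 4 AP-1 genes rose and 0 fell, and 2012 genes rose and 2432 fell in all, against 1935 and 2351. FOSL2 rests on few counts, 20 to 43 per library, and DESeq2 gave it no adjusted p.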
